A study of Mus musculus with 4 samples.

Results

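The genes described here are the itaconate synthase gene Acod1 and 8 genes of the citric acid cycle and of citrate export, Cs, Idh1, Idh2, Idh3a, Sdha, Sdhb, Slc25a1 and Acly. They were chosen by name for their place in the pathway, and all 9 were found among the 22911 genes that the array's probes could be assigned to. They are read by 16 probes, 2 each for 7 genes and 1 each for Acod1 and Idh3a, and all 16 were well above background on all 4 arrays. The samples were RAW264.7 cells, an established mouse macrophage-like line, in 4 groups of 1 array each. These were Ruvbl2 siRNA with LPS, Ruvbl2 siRNA with DMSO, control siRNA with LPS and control siRNA with DMSO. LPS is lipopolysaccharide, the bacterial ligand of Toll-like receptor 4, and RUVBL2 is an ATPase of chromatin remodelling and chaperone complexes whose part in inflammatory gene expression the series asks about. The Ruvbl2 siRNA was a SMARTpool (labelled siRvbl2 in the sample titles), the control siRNA was non-targeting, and all cells were collected 2 days after transfection. How much LPS was used, and for how long, is not stated in the labels used here.

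The citric acid cycle runs in the mitochondrial matrix, where citrate synthase joins acetyl-CoA to oxaloacetate, citrate becomes isocitrate, isocitrate dehydrogenases make 2-oxoglutarate, and succinate dehydrogenase passes electrons from succinate to the respiratory chain. Activated macrophages are known to divert cis-aconitate, an intermediate between citrate and isocitrate, to itaconate through the enzyme ACOD1, also called IRG1. Itaconate inhibits succinate dehydrogenase and has antibacterial and anti-inflammatory actions, while citrate that leaves the mitochondrion through the SLC25A1 carrier is split by ATP citrate lyase (ACLY) into acetyl-CoA for lipid synthesis and acetylation.

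The promoters of the itaconate gene and of the citrate export pair are shown because Acod1 had by far the widest range of the 9 genes over the arrays and the export pair a narrow one. Each window is RefSeq sequence of build GRCm38.p6 on the gene's strand and spans 250 bases before to 50 after the gene's start. The Acod1 window lies at chr14:103046762-103047061 (plus strand), that of Slc25a1 at chr16:17928170-17928469 (minus strand) and that of Acly at chr11:100527951-100528250 (minus strand). Capitals mark the matches listed in the next paragraph.
Acod1: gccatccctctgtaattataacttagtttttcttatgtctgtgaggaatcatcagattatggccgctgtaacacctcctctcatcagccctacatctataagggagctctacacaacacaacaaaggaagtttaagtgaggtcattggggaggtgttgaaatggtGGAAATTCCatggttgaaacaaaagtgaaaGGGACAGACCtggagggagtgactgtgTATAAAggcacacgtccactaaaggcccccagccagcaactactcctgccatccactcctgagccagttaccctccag
Slc25a1: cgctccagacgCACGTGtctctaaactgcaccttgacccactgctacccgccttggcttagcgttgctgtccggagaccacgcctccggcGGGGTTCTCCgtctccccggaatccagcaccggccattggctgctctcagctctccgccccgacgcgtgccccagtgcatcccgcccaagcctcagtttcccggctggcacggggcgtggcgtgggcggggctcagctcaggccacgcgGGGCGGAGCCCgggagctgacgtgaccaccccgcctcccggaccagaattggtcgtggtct
Acly: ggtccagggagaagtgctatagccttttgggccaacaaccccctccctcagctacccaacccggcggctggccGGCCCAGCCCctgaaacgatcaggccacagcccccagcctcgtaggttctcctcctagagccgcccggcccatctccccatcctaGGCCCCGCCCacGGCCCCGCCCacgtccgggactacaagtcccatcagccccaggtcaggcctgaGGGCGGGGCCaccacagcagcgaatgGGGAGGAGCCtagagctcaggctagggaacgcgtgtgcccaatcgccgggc

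Windows were found for 8 of the 9 genes, 9 windows in all. The Acod1 window has 47% G and C bases, against 69.3% in the Slc25a1 window, 68.7% in the Acly window and a median of 52.7% over 32851 windows. It holds TATAAA, the core promoter letters, on the gene's strand at bases -28 to -23 from the start, and none of the other 8 windows has these letters. Of all windows, 13.6% hold them anywhere on either strand and 8.32% anywhere on the gene's strand. The share with a match at that position is not given here. A loose form of the NF-kB site, GGG and CC with 5 bases of any kind between, was present at bases -55 to -46 of the Acod1 window, but 50.8% of all windows hold it on some strand and 7 of the other 8 windows here do too. The Acod1 window also holds GGAAATTCC, a kB-type sequence searched for after the window had been seen, at bases -85 to -77, as do 0.317% of all windows. The E-box CACGTG stood in the Slc25a1 window at bases -239 to -234 and in 7.15% of all windows. None of the 9 windows matched the interferon response form of GAAA and GAAA with 2 bases between (3.44% of all windows), TGANTCA (AP-1, 7.81%), TGACNNNGC (NRF2, 12.4%) or TCACNCCAC (SREBP, 1.24%). All motifs were searched on both strands, and neighbouring matches of the loose NF-kB form overlap in some windows. A match describes the letters and does not show binding.

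Values below are levels, the log2 processed signal of a probe minus its array's 75th percentile, so a level of 0 is that percentile. A gene was read from its brighter probe unless the other is named, and levels of different probes were not compared. A difference of 1 on the log2 scale, 2-fold, was called higher or lower. Since each group is a single array, no replicate and no test exist, and a call is a size on these arrays. The technical SD given beside a difference comes from 300 probes printed 10 times on each array and covers spot-to-spot error alone, not labelling, transfection or culture. The 4 pairwise comparisons share arrays and are not independent of each other.

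The array facts that touch these genes were few. Of the RNA spots, 54.1% to 55% per array were well above background and no spot was saturated. With percentile scaling the targeted gene Ruvbl2 read, short of a call, at 75.7% of control siRNA with LPS and 79.2% with DMSO by its brighter probe (log2 differences of -0.40 and -0.34, technical SD 0.08 each). Its dimmer probe read 92.2% and 68.5% (-0.12 and -0.55), with larger technical SDs of 0.38 and 0.34. The Ruvbl2 siRNA pair occupied slide row 2 and the control siRNA pair slide row 1, so siRNA and slide row cannot be told apart. Of 10 macrophage markers 9 passed the background call on all arrays and Mertk on none. Their summed level was 10.22 and 10.06 with Ruvbl2 siRNA (LPS and DMSO) and 10.15 and 9.90 with control siRNA. Of the markers of other cell types, 3 of 5 for T cells (Cd3e, Cd3d and Cd4), 1 of 4 for B cells (Pax5), 1 of 5 for fibroblasts (Col1a2) and 0 of 4 for epithelium were well above background on all arrays. The summed T cell marker level lay between 1.72 and 1.99, and with percentile scaling it was lower on both LPS arrays. The part of these markers in the results was not tested. When the arrays were scaled on their added E1A spike-in RNA instead of the percentile, the median difference over all genes became 0.34 for LPS with Ruvbl2 siRNA, 0.07 for LPS with control siRNA, -0.26 for Ruvbl2 against control siRNA in DMSO and 0.26 for the difference of the LPS effects. With that scaling higher genes made up 90.2% of the calls (66.6% with the percentile) for LPS with Ruvbl2 siRNA, 24.6% (65.4%) for the siRNAs in DMSO and 78.8% (30.3%) for the difference of the LPS effects.

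LPS raised Acod1 strongly with both siRNAs, and under LPS its level was lower with Ruvbl2 siRNA than with control siRNA. With Ruvbl2 siRNA the level was 5.65 with LPS and 1.55 with DMSO, and with control siRNA it was 6.78 with LPS and 1.60 with DMSO. In order from low to high, the DMSO arrays came first and lay closer together than their technical SD of 0.15, followed by LPS with Ruvbl2 siRNA and then LPS with control siRNA.

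**Figure D1:**
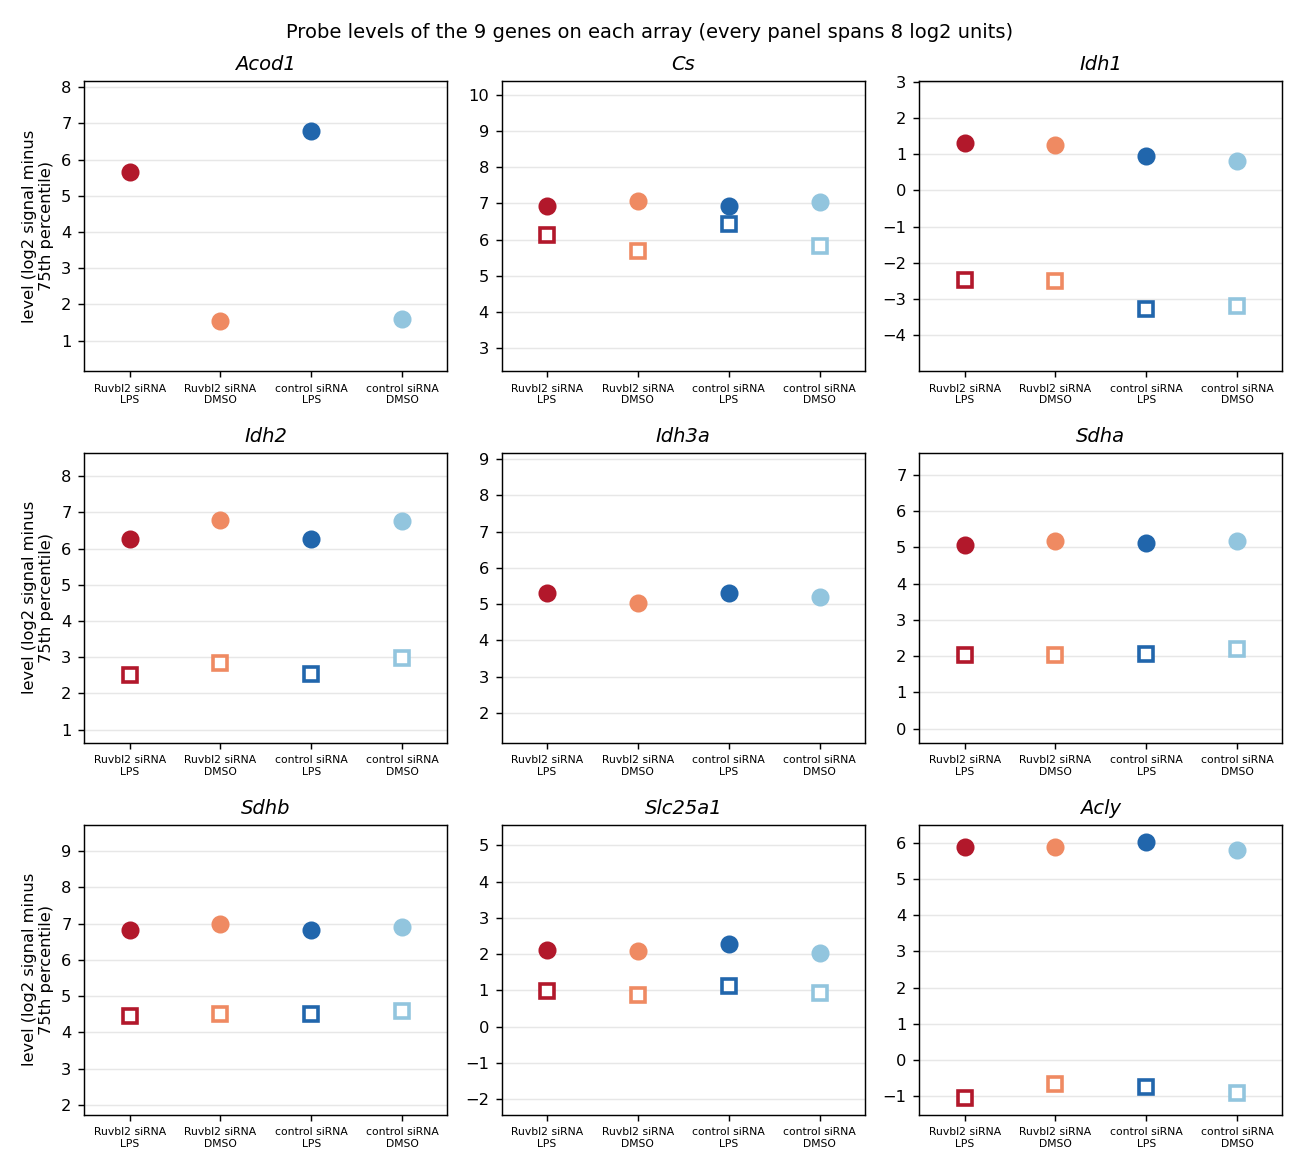
Level (log2 signal minus the array's 75th percentile) of each probe of the 9 genes on the 4 arrays, with filled circles for the brighter and open squares for the dimmer probe of a gene. Each panel spans 8 log2 units, and Acod1 alone moves across several of them, at 5.65 and 6.78 with LPS against 1.55 and 1.60 with DMSO.

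With Ruvbl2 siRNA, Acod1 was 17.1-fold higher with LPS than with DMSO (log2 difference 4.10, technical SD 0.12). This was the 13th highest difference among 12657 genes measured on both arrays, and 4.14% of all genes compared were called higher. With control siRNA it was 36.1-fold higher (5.17, technical SD 0.11), the 10th highest of 12724 genes, where 5.74% were called higher. Acod1 was the only one of the 9 genes called higher in either comparison, and 0 of 9 were called lower, where 2.07% of all genes were called lower with Ruvbl2 siRNA and 2.21% with control siRNA.

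Under LPS the Acod1 level with Ruvbl2 siRNA was 45.7% of that with control siRNA (log2 difference -1.13, technical SD 0.07), the only call among the 9 genes, where 1.46% of all genes were called lower and 1.06% higher. With normexp, quantile, detected-probe or spike-in scaling the value was -1.16 to -1.13. In DMSO the same comparison gave 96.4% (-0.05, technical SD 0.15, or -0.36 with spike-in scaling). None of the 9 genes was called there, where 1.01% of all genes were called higher and 0.537% lower. In a bulk culture, fewer cells that express the gene and less RNA per cell cannot be told apart.

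The LPS effect on Acod1, in log2 units, was thus smaller by 1.08 with Ruvbl2 siRNA than with control siRNA (-1.08, technical SD 0.17). Among 12471 genes well above background on all arrays, 1.18% were called lower and 0.513% higher in this difference. The Acod1 value was -0.78 with spike-in scaling, short of the size rule. There were 323 genes measured and called higher with LPS with each siRNA. Their median difference between Ruvbl2 and control siRNA under LPS was -0.38, and 28 of them, Acod1 included, were as low as Acod1. These genes were selected on the same arrays, and the count is a description.

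The 5 genes with the pattern most like that of Acod1 over the 4 arrays were Scimp, Zbp1, Nos2, Slamf9 and Cxcl2. Likeness was the root mean square difference of the levels, each gene centred on its own mean, over 11622 genes, and it was 0.21 for Scimp and Zbp1, 0.24 for Nos2, 0.30 for Slamf9 and 0.34 for Cxcl2. SCIMP is a Toll-like receptor adaptor of immune cells, ZBP1 a nucleic acid sensor, NOS2 the inducible nitric oxide synthase, SLAMF9 a receptor of the SLAM family and CXCL2 a chemokine for neutrophils. Their differences between Ruvbl2 and control siRNA under LPS were -0.75, -1.10, -1.04, -1.22 and -1.80 in the same order, against -1.13 for Acod1. The 5 genes were picked for likeness on these same arrays, so a shared direction follows largely from the selection. In DMSO the differences were -0.41, -0.62, -0.06, 0.03 and -0.38, so the DMSO arrays read nearly equal for Nos2 and Slamf9, as for Acod1. For Scimp, Zbp1 and Cxcl2 they were further apart. Scimp, Slamf9 and Cxcl2 were dim in DMSO, at -3.43 to -2.73. At such levels spot error is large: the dimmer Idh1 probe, at -2.49 and -3.19 in DMSO, had a technical SD of 0.47. With spike-in scaling the DMSO values are all lower by the same shift, which took Acod1 from -0.05 to -0.36, and that of Slamf9 is then below 0.

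**Figure D2:**
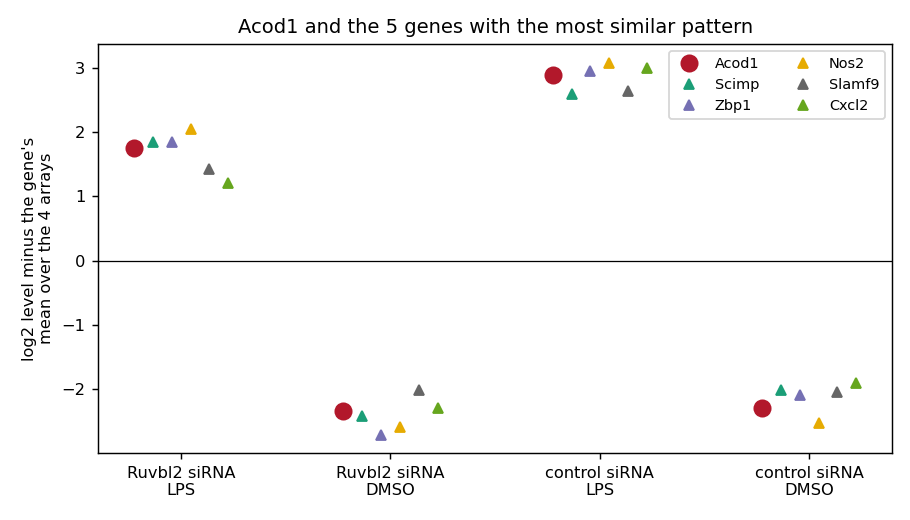
Level of Acod1 (circles) and of its 5 most similar genes (triangles) on each array, as log2 level minus the gene's mean over the 4 arrays. Acod1 lies at 1.75 with LPS and -2.34 with DMSO for Ruvbl2 siRNA, and at 2.88 and -2.29 for control siRNA. All 6 genes are higher on the control siRNA LPS array than on the Ruvbl2 siRNA LPS array, which follows largely from their selection by likeness.

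The other 8 genes had small differences, and none was called in any comparison. With 0.513% to 5.74% of all genes called per direction, 0 of 8 is no result about these genes. Of all genes measured, 82.5% differed with LPS by no more than the largest of the 8 with Ruvbl2 siRNA, and 75.5% with control siRNA. Between the siRNAs these shares were 79.9% under LPS and 91.8% in DMSO. Their LPS differences ran from -0.54 to 0.27 with Ruvbl2 siRNA (median -0.04, against -0.03 for all genes compared) and from -0.48 to 0.23 with control siRNA (median 0.03). Between Ruvbl2 and control siRNA they ran from -0.15 to 0.37 under LPS and from -0.16 to 0.46 in DMSO, with medians of -0.02 and 0.04. Where the spike-ins set the scale, the medians followed that of all genes, at 0.32 for LPS with Ruvbl2 siRNA and -0.26 for the siRNAs in DMSO. The difference of the LPS effects lay between -0.22 and 0.13 for these 8 genes with percentile scaling (median -0.07). With spike-in scaling it lay between 0.08 and 0.43 (median 0.22, against 0.26 for all genes).

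Citrate synthase, the entry enzyme of the cycle, gave opposite readings from its 2 probes, which are assigned to the same transcript. The brighter Cs probe had levels of 6.93 and 7.07 with Ruvbl2 siRNA (LPS and DMSO) and of 6.93 and 7.03 with control siRNA. The dimmer probe had 6.12 and 5.68 with Ruvbl2 siRNA and 6.42 and 5.82 with control siRNA. By the brighter probe LPS differed from DMSO by -0.14 with Ruvbl2 siRNA (0.23 with spike-in scaling) and by -0.09 with control siRNA (technical SD 0.07 each), and by the dimmer probe by 0.44 and 0.60 (technical SD 0.08 each). Under LPS the dimmer probe was at 81.2% with Ruvbl2 siRNA relative to control siRNA and the brighter at 99.5%. A direction for Cs with LPS therefore depends on the probe.

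The isocitrate dehydrogenases did not move as a family. Idh2, the mitochondrial NADP-dependent enzyme, had levels of 6.25 and 6.78 with Ruvbl2 siRNA (LPS and DMSO) and of 6.27 and 6.75 with control siRNA. With percentile scaling both LPS arrays lay below both DMSO arrays, and the dimmer probe had the same order at 2.50 and 2.84 with Ruvbl2 siRNA and 2.55 and 2.98 with control siRNA. The LPS difference was -0.54 with Ruvbl2 siRNA (technical SD 0.07, -0.17 with spike-in scaling) and -0.48 with control siRNA (technical SD 0.08), a 1.45-fold and a 1.39-fold lower level that is under the size rule. Of the genes measured, 8.77% and 11.1% were as low or lower in these comparisons. The brighter probe kept a negative sign under every scaling tried. By the dimmer probe the LPS difference was -0.35 with Ruvbl2 siRNA and -0.42 with control siRNA. Spike-in scaling would take away the negative sign of the first. Between the siRNAs Idh2 differed by -0.02 under LPS and by 0.03 in DMSO, and the DMSO value turned sign with 3 of the scalings.

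Idh1, the cytosolic and peroxisomal NADP-dependent enzyme, differed more by siRNA than by LPS with percentile scaling, an order that spike-in scaling did not keep. Its brighter probe had levels of 1.31 and 1.26 with Ruvbl2 siRNA (LPS and DMSO) and 0.94 and 0.80 with control siRNA, and its dimmer probe, assigned to another Idh1 transcript, -2.48 and -2.49 with Ruvbl2 siRNA and -3.28 and -3.19 with control siRNA. With percentile scaling both Ruvbl2 siRNA arrays lay above both control siRNA arrays by either probe. With spike-in scaling the brighter probe did not keep this order. Ruvbl2 against control siRNA gave 0.37 under LPS and 0.46 in DMSO (technical SD 0.19 and 0.20) by the brighter probe, and 0.80 and 0.70 (technical SD 0.47 each) by the dimmer. In the brighter probe's values 9.13% of genes measured were as high or higher under LPS and 4.65% in DMSO, and with spike-in scaling the values were 0.36 under LPS and 0.16 in DMSO. None of these reached 2-fold. The LPS difference of Idh1 was 0.05 with Ruvbl2 siRNA and 0.15 with control siRNA, each under its technical SD of 0.18 and 0.21. With spike-in scaling it was 0.42 with Ruvbl2 siRNA and 0.22 with control siRNA.

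Idh3a, the catalytic subunit of the NAD-dependent enzyme, had levels of 5.30 and 5.03 with Ruvbl2 siRNA (LPS and DMSO) and of 5.32 and 5.19 with control siRNA. The LPS arrays nearly coincided, and the lowest value was that of Ruvbl2 siRNA in DMSO. LPS against DMSO gave 0.27 with Ruvbl2 siRNA (0.64 with spike-in scaling) and 0.13 with control siRNA (0.20), with a technical SD of 0.08 each. Its partner subunits did not share one pattern: Idh3g gave -0.52 and -0.41 in these comparisons and Idh3b 0.14 and -0.27 (technical SD 0.08 for Idh3g and 0.09 for Idh3b). With spike-in scaling the Ruvbl2 siRNA values were -0.15 for Idh3g and 0.51 for Idh3b.

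Of succinate dehydrogenase, the enzyme that itaconate inhibits, the subunit gene Sdha was among the steadiest of the 9 by its brighter probe with percentile scaling. Sdha, the flavoprotein that binds succinate, had levels of 5.08 and 5.18 with Ruvbl2 siRNA (LPS and DMSO) and of 5.11 and 5.18 with control siRNA. Sdhb, the iron-sulfur subunit, had 6.82 and 7.0 with Ruvbl2 siRNA and 6.83 and 6.90 with control siRNA. For Sdha the LPS difference was -0.10 with Ruvbl2 siRNA (0.27 with spike-in scaling) and -0.07 with control siRNA, against a technical SD of 0.08, and the siRNA difference under LPS was -0.03. Sdhb differed with LPS by -0.18 with Ruvbl2 siRNA (0.18 with spike-in scaling) and by -0.08 with control siRNA, against a technical SD of 0.07. Under LPS Sdhb was at 99.4% and Sdha at 98.3% of control siRNA with Ruvbl2 siRNA. The membrane anchors, which are not among the 9 genes, differed with LPS by -0.27 (0.10 with spike-in scaling) and -0.09 for Sdhc and by 0.22 (0.59 with spike-in scaling) and 0.02 for Sdhd, with Ruvbl2 and control siRNA.

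**Figure D3:**
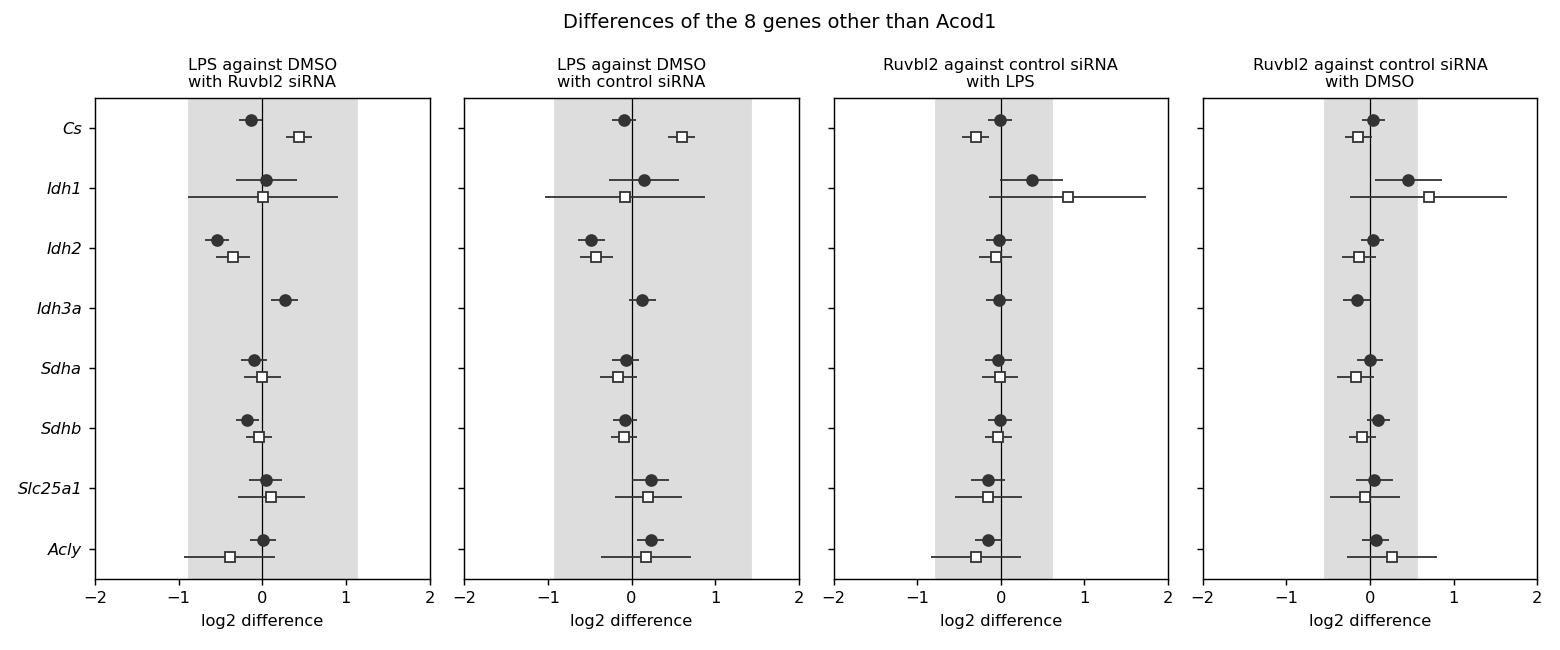
Log2 differences of the 8 genes other than Acod1 in the 4 pairwise comparisons, with filled circles for the brighter and open squares for the dimmer probe, bars of 2 technical SDs to each side, and the grey band holding the middle 95% of genes measured. Idh2 lies left of 0 in both LPS comparisons, Idh1 right of 0 in both siRNA comparisons, and the 2 Cs probes fall on opposite sides of 0 with LPS. With spike-in scaling both Cs probes are above 0 for LPS with Ruvbl2 siRNA, and the dimmer Idh2 probe is not below 0 there.

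The citrate export pair had nearly the same small differences. Slc25a1, the mitochondrial citrate carrier, had levels of 2.12 and 2.09 with Ruvbl2 siRNA (LPS and DMSO) and of 2.27 and 2.04 with control siRNA. Acly, which splits citrate in the cytosol, had 5.88 and 5.87 with Ruvbl2 siRNA and 6.03 and 5.81 with control siRNA. For both genes the control siRNA LPS array was the highest of the 4 with percentile scaling. LPS against DMSO gave 0.04 for Slc25a1 and 0.01 for Acly with Ruvbl2 siRNA (technical SD 0.10 and 0.08), and 0.23 for each with control siRNA (technical SD 0.11 and 0.08). With spike-in scaling they were 0.40 and 0.38 with Ruvbl2 siRNA and 0.30 for each with control siRNA, so the order of the siRNAs turned. Under LPS the siRNA difference was -0.15 for each. The difference of the LPS effects was -0.20 for Slc25a1 (technical SD 0.15) and -0.22 for Acly (technical SD 0.11), and it turned to as much as 0.10 and 0.08 with spike-in scaling. Of the genes measured, 26.9% and 24.7% had values as low or lower. The dimmer Acly probe, assigned to another transcript, gave -0.39 with Ruvbl2 siRNA and 0.17 with control siRNA for LPS against DMSO (technical SD 0.27 each), and the dimmer Slc25a1 probe 0.11 and 0.20 (technical SD 0.20 each).

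Around these 9 genes stood 77 further genes of 6 listed pathways. With LPS 0 of 69 compared were higher and 2 lower with Ruvbl2 siRNA (median -0.07), where 4.14% of all genes were called higher and 2.07% lower. With control siRNA 2 of 71 were higher and 1 lower (median -0.05), where 5.74% and 2.21% of all genes were. Between Ruvbl2 and control siRNA 3 of 69 were lower and 0 higher under LPS (median -0.02), where 1.46% of all genes were lower and 1.06% higher. In DMSO 0 of 71 were called (median -0.01), where 1.01% of all genes were higher and 0.537% lower. Of 19 other citric acid cycle genes, which include 2-oxoglutarate dehydrogenase, succinyl-CoA ligase, fumarase and malate dehydrogenase, none was called in any comparison. With 0.537% to 5.74% of all genes called per direction, 0 of 19 is no result about the list. The medians of these 19 were 0.01 and 0.01 for LPS with Ruvbl2 and control siRNA, and -0.02 and 0.01 for the siRNAs under LPS and DMSO.

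Among genes of itaconate breakdown and transport, Clybl and Abcg2 were called. Clybl, the citramalyl-CoA lyase that completes the breakdown of itaconate carbon, had levels of 0.06 and 1.25 with Ruvbl2 siRNA (LPS and DMSO) and of 0.15 and 1.0 with control siRNA. It was 2.29-fold lower with LPS with Ruvbl2 siRNA (-1.19, technical SD 0.20, -0.83 with spike-in scaling) and differed by -0.85 with control siRNA, short of the rule. Abcg2, an exporter of many small molecules, had levels of -0.02 and -0.99 with Ruvbl2 siRNA and 0.39 and -0.93 with control siRNA. It was 2.50-fold higher with LPS with control siRNA (1.32, technical SD 0.24) and differed by 0.97 with Ruvbl2 siRNA, which is 1.33 with spike-in scaling. Auh, a mitochondrial enoyl-CoA hydratase of the same list, gave -0.63 with Ruvbl2 siRNA (-0.26 with spike-in scaling) and -0.78 with control siRNA (-0.71). For the 3 genes the differences of the LPS effects were not called.

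Called genes at the edges of the cycle were Pdk2, Acss2, Gpt2 and Pck2. Pdk2, a kinase that inactivates pyruvate dehydrogenase, was lower with LPS by 1.37 with Ruvbl2 siRNA and by 1.50 with control siRNA on the log2 scale (-1.37 and -1.50), but its LPS levels of -4.15 and -4.43 are near the floor of detection (-4.82 and -4.83), and the values were -0.47 and -0.44 with normexp correction. Acss2, which makes acetyl-CoA from acetate, had levels of 0.56 and 0.47 with Ruvbl2 siRNA (LPS and DMSO) and of 1.68 and 0.66 with control siRNA. It was thus high on the control siRNA LPS array alone, 2.03-fold higher there than with DMSO (1.02, technical SD 0.18). By its other probe this difference was 0.82, short of the rule. Under LPS it was 2.17-fold lower with Ruvbl2 siRNA than with control siRNA (-1.12, technical SD 0.18, or -0.99 with normexp correction). Its other probe gave -0.72, also short of the rule. Gpt2, the mitochondrial alanine aminotransferase that supplies 2-oxoglutarate, had levels of 0.06 and 0.54 with Ruvbl2 siRNA and of 1.22 and 0.60 with control siRNA, and was 2.24-fold lower with Ruvbl2 siRNA under LPS (-1.16, technical SD 0.20), or -1.19 by its other probe. Pck2, the mitochondrial phosphoenolpyruvate carboxykinase, had 2.45 and 3.07 with Ruvbl2 siRNA and 3.91 and 3.04 with control siRNA, and differed by -1.46 between the siRNAs under LPS (technical SD 0.09), or -1.39 by its other probe.

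**Figure D4:**
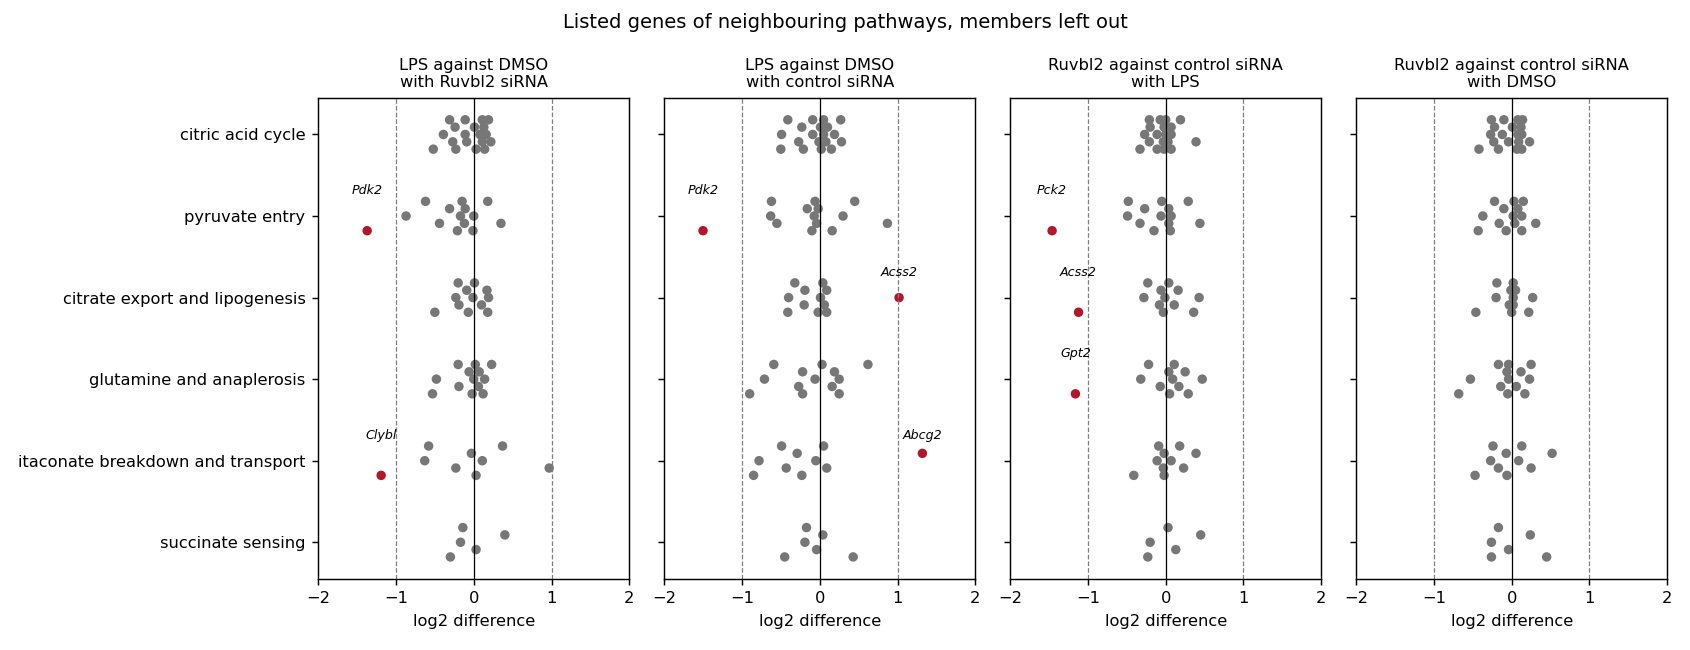
Log2 differences of the listed pathway genes other than the 9 described, one row per list and one panel per comparison, with dashed lines at the 2-fold size rule and called genes in red. Most points lie between the lines, and the third panel shows Pck2, Acss2 and Gpt2 as the called genes, all lower with Ruvbl2 siRNA under LPS.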

How the data were processed

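RNA of 4 RAW264.7 samples was labelled with Cy3 and put on Agilent mouse arrays, 1 colour each. Per the file headers, the authors deposited an intensity per spot, the processed signal, from which background was subtracted and a spatial trend removed on each array, with Feature Extraction 11.5.1.1 (11.0 per the submitters' processing notes), and no normalization between arrays. The series value table equalled it at all 62976 spots (relative tolerance 1e-06). Population outlier spots were left out, log2 values of a probe's spots averaged and the array's 75th percentile subtracted. RefSeq accessions named 32994 of 56605 probes. A gene was read from its probe with the highest mean level. Differences of 1 (2-fold) were called where both arrays were well above background. Otherwise the dim value was raised to the floor if below it, the lowest level of a detected probe. Technical SDs pool the 50 nearest values in level among repeated probes. The calling step was tested on simulated data.

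Alternatives were normexp correction (offset 50, limma 3.58.1) with quantile normalization, quantile normalization, detected-probe centring, spike-in centring on 7 E1A probes, the mean of probes, a level of -2 on the brighter array, and the value table. Normexp used the median spot signal, since the files hold no mean signal. The 9 genes, the lists and the rules (all 9 genes, called list genes, subunits and paralogues, the 5 genes most like Acod1) were chosen with earlier results of these data known. Auh, Mertk and the markers were named besides, and GGAAATTCC was searched after seeing the sequence. Array annotation and promoter table rest on different builds, so no positions are given other than those of the printed promoter windows. Values of 1 listed gene are not reported here. All columns of per-sample values were used as named by the samples.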

Additional observations from a re-analysis of the deposited data

Results flagged for a closer look

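Among the pathway genes, Pck2 and Gpt2 had LPS effects of opposite sign with the 2 siRNAs. By their brighter probes each effect was larger than 2 technical SDs, and the effects differed by over 2-fold. The other probes are dimmer, where technical SDs are larger, and the size of 2 SDs is not claimed for them. Pck2 differed with LPS by -0.62 with Ruvbl2 siRNA and by 0.87 with control siRNA, a difference of -1.49 (-1.19 with spike-in scaling). The other Pck2 probe gave -0.97 and 0.58, a difference of -1.54. Gpt2 differed by -0.48 and 0.62, a difference of -1.10 (-0.80 with spike-in scaling). The other Gpt2 probe gave -0.32 and 0.98, a difference of -1.29. With spike-in scaling the Ruvbl2 siRNA values were -0.25 for Pck2 and -0.11 for Gpt2 (technical SD 0.10 and 0.21), so Gpt2 then met neither size. With 1 array per group these differences were not tested. None of the 9 genes had such opposite effects. The share of all genes with such effects is not given here, so 0 of 9 is no result about them.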

How the results depend on the processing

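The calls on Acod1 with LPS and between the siRNAs under LPS were the same under all 7 alternatives. The mean of probes, the level filter and the value table could not change them. Acod1 has 1 probe, its levels are above -2, and the value table equals the processed signal. Its LPS difference with Ruvbl2 siRNA was 4.47 with spike-in centring and 3.96 with normexp correction (always with quantile normalization), that with control siRNA was 5.02 with normexp correction, its siRNA difference in DMSO was -0.36 with spike-in centring, and its difference of the LPS effects was -0.78 there, so that 0 of 9 genes passed 1 with that scaling. Spike-in centring adds the same amount to every gene of a comparison. Of the 40 values of the other 8 genes, 25 moved by more than their technical SD with spike-in centring and 15 turned sign. With the mean of probes 13 moved and 9 turned sign, with normexp correction 5 and 9, and with quantile normalization 4 and 7. The other 3 alternatives moved 0 of them, and detected-probe centring turned the sign of 1, a Sdha value of 0 to 2 decimals. Of these, the level filter and the value table could not move any value. Signs are those of unrounded values. Over all genes the calls with normexp correction were 298 higher and 116 lower (559 and 280 without it) for LPS with Ruvbl2 siRNA, 450 and 150 (776 and 298) with control siRNA, 24 and 71 (143 and 197) for the siRNAs under LPS, 14 and 25 (136 and 72) in DMSO and 14 and 51 (64 and 147) for the difference of the LPS effects. With spike-in centring they were 1103 and 120 for LPS with Ruvbl2 siRNA, 69 and 212 for the siRNAs in DMSO and 227 and 61 for the difference. Requiring a level of -2 left 366 and 160 for LPS with Ruvbl2 siRNA, 41 and 112 for the siRNAs under LPS, 26 and 34 in DMSO and 35 and 96 for the difference. No paired analysis was possible because each group is 1 array. The number of arrays limits the precision.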
